A study of Mus musculus with 17 samples.

Results

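Eomes, Tbx21 and Prdm1 encode transcription factors that set the effector program of T cells. Their chromatin was described through every called island of 4 histone modifications and every Tcf1 binding peak that overlapped the window assigned to each gene. The windows, in the mm9 build, were chromosome 9, 118370000 to 118410000, for Eomes, chromosome 11, 96945000 to 96995000, for Tbx21, and chromosome 10, 44145000 to 44200000, for Prdm1. Islands and peaks were taken by position alone, though the genes and windows were chosen with earlier results of these data known. That each window holds its gene was not checked against an mm9 annotation, so gene names below stand for these windows. They held 71 of the 346699 islands of the 12 island lists and 5 of the 7807 Tcf1 peaks. The islands numbered 19 at Eomes, 26 at Tbx21 and 26 at Prdm1.

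The study profiled sorted mouse T cells by chromatin immunoprecipitation and sequencing (ChIP-seq). Mature thymocytes formed 3 groups: CD8 cells of Tcf1-/-Lef1-/- mice, in which CD4-Cre had deleted both factors (DKO CD8), wild-type CD4 cells (WT CD4) and wild-type CD8 cells (WT CD8). The CD8 thymocytes were TCRbeta-high and negative for CD69 and CD24, and Tcf1 was mapped in splenic TCRbeta-high CD8 T cells of wild-type mice, with Tcf1-/- cells as the control. CD4-Cre acts once a thymocyte expresses CD4, so the deletion dates from within the thymus. The WT CD4 samples carry a phenotype label that names CD8, and their titles and source names, which say CD4, were followed. With 1 library for each group and modification, the groups cannot be tested against a spread between animals. P-values are therefore not given, and the intervals printed cover the error of counting alone. The groups' cell identity and the deletion were not checked in these data, because no mm9 gene annotation was used.

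Eomes and Tbx21 (T-bet) belong to the T-box family of DNA-binding proteins, and together they drive cytotoxic and interferon-γ genes in CD8 T cells and natural killer cells. Prdm1 encodes Blimp-1, a zinc-finger repressor that promotes terminal effector differentiation. Naive and newly mature T cells hold such genes in check, and Polycomb proteins, which deposit H3K27me3, are one means by which developmental regulators are kept silent. H3K4me3 is typical of promoters, while the acetyl marks H3K27ac and H3K9ac are found at active enhancers and promoters. Tcf1, with its relative Lef1, is a DNA-binding factor of the HMG-box family that is needed for T cell development and for CD8 memory cells.

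The promoters of the 3 genes are shown because CpG-rich sequence is where Polycomb proteins commonly gather in mammalian cells. The sequences are the 250 bases before each gene's RefSeq start in GRCm38.p6, in the gene's own direction, with CG pairs in capitals. GRCm38.p6 is not the build of the islands, so the start sites were not placed on the island maps.
Eomes: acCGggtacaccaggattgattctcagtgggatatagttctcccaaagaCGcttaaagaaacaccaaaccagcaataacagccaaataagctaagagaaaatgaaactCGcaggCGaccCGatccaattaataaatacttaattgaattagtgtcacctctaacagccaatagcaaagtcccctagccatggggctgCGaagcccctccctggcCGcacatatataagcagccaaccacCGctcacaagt
Tbx21: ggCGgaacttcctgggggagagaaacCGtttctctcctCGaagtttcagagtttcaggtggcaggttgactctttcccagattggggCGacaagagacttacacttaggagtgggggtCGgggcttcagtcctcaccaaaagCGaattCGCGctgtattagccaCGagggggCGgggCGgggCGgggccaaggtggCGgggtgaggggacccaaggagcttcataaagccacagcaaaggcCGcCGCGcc
Prdm1: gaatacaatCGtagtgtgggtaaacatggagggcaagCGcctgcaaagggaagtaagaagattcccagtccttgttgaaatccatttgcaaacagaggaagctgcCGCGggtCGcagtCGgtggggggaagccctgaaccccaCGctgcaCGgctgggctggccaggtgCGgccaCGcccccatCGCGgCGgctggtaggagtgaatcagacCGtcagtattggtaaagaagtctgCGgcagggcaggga
They lie at chr9:118477939-118478188 on the plus strand for Eomes, and on the minus strand at chr11:97115332-97115581 for Tbx21 and chr10:44458749-44458998 for Prdm1. The Eomes sequence held 8 CG pairs and 46.4% G or C, the Tbx21 sequence 16 pairs and 60.8%, and the Prdm1 sequence 15 pairs and 59.2%. Over 32851 RefSeq promoter entries the medians were 6 pairs and 52.4%, and 57.0% of entries had fewer pairs than Eomes, 74.6% fewer than Tbx21 and 72.7% fewer than Prdm1. The letters CTTTGA or their reverse complement TCAAAG, the core of the site that Tcf1 and Lef1 bind, did not occur in these 3 windows of sequence and occurred in 13.8% of entries.

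H3K27me3 covered more of each window than any other mark in each group, and had 40 of the 71 islands. Among all 346699 islands, H3K27me3 had 23933 in DKO CD8, 34013 in WT CD4 and 34756 in WT CD8. It also covered the most sequence of the 4 marks in each group's lists as a whole: 96.1, 142 and 121 Mb. For H3K27ac, the next, this was 59.1, 64.2 and 83.5 Mb. H3K27me3 islands covered 74.5% of the Eomes window in DKO CD8, 77.0% in WT CD4 and 46.0% in WT CD8. At Tbx21 they covered 66.4% in DKO CD8, 54.4% in WT CD4 and 45.2% in WT CD8, and at Prdm1 24.7%, 30.2% and 16.0% in the same groups. Over the span between the outermost islands of each chromosome, the same lists covered 3.72% in DKO CD8, 5.5% in WT CD4 and 4.69% in WT CD8. In each of the 9 pairs of a gene and a group, the window was thus covered more densely than the span as a whole. The DKO CD8 list covered less sequence in all (96.1 Mb) than the WT CD8 list (121 Mb), yet more of each window. The 3 lists were also trimmed to an equal 96.1 Mb by dropping the islands with fewest reads per kb, which left the DKO CD8 list whole. DKO CD8 islands then covered 74.5%, 66.4% and 24.7% of the Eomes, Tbx21 and Prdm1 windows. WT CD4 islands covered 77.0%, 49.2% and 20.0%, and WT CD8 islands 46.0%, 17.2% and 9.45%. Sparse islands are lost first, so these shares depend on density as well as on length.

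**Figure D1:**
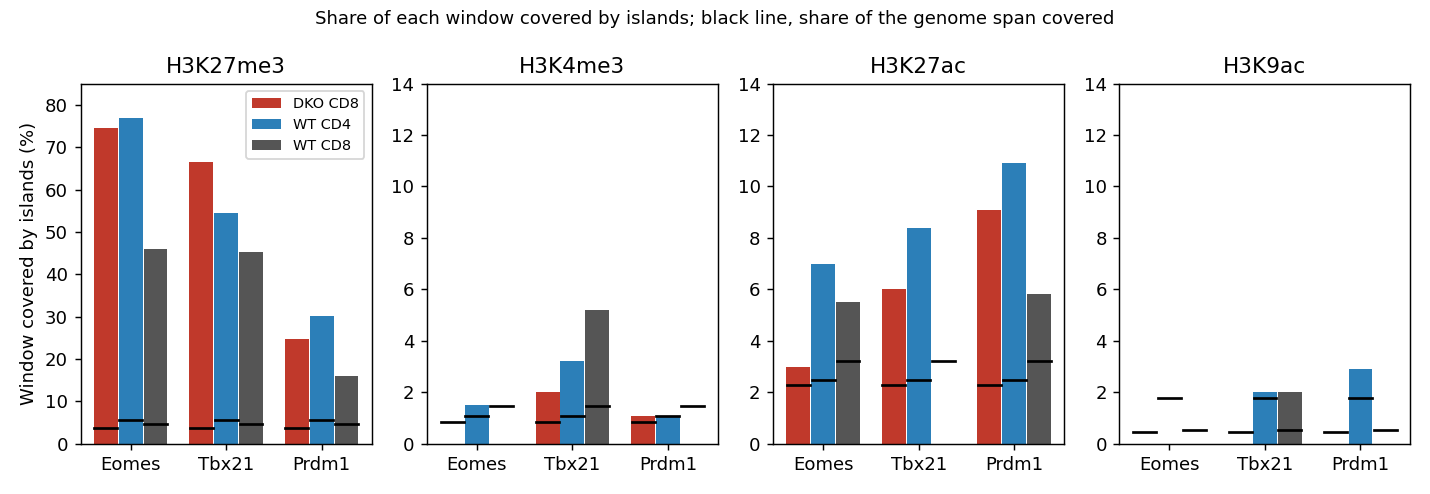
Share of each gene's window covered by islands (vertical axis, percent, with its own scale for H3K27me3), by mark and group, 1 library per bar. Black lines give the share of the genome span covered by the same list, and H3K27me3 bars, from 16.0% to 77.0%, stand far above them.

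Differences between libraries bear on every comparison with WT CD8. At H3K27me3 regions with islands in each of the compared libraries, reads favoured DKO CD8 over WT CD8 by a median of 2.29-fold and WT CD4 over WT CD8 by 2.65-fold. H3K27ac islands overlapped an H3K27me3 island of their own group in 13.6% of cases in DKO CD8, 14.8% in WT CD4 and 33.3% in WT CD8, so the WT CD8 list stood apart. Over the whole H3K27me3 lists, reads per kb of island were 32.0 in DKO CD8, 28.4 in WT CD4 and 21.2 in WT CD8. For H3K27ac they were 33.1, 39.1 and 24.6. Reads per kb given below are not scaled for these differences. The part of these library differences in the results was not tested. Ratios below are therefore given on the log2 scale relative to the median over all regions with islands in each of the 2 libraries. Reads outside islands are not known, so a ratio in which either group has only a small island within a wide region can be overstated. The scaling also matters: for H3K27me3, DKO CD8 over WT CD8 was 1.19 on the log2 scale at the median region and 0.26 for total island reads. DKO CD8 and WT CD4 are each set against the same WT CD8 libraries, so these comparisons are not independent of each other.

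Overlapping islands of the 3 groups, by 1 bp or more, were joined into regions, which gave 13 for H3K27me3 in the windows. Of these, 9 had an island in all 3 groups, against 12% of all H3K27me3 regions. DKO CD8 alone had 2 (12% of all regions), WT CD4 alone 1 (27.6%) and WT CD8 alone 1 (33.9%). Of the 9 common regions, DKO CD8 over WT CD8 was 2-fold or more above the median ratio in 2 (against 7.45% of all regions) and 2-fold or more below it in 1 (21.4%). Their median log2 ratio was 0.59 for DKO CD8 over WT CD8 and 0.52 for WT CD4 over WT CD8, where the median over all regions is 0 by construction. These 9 regions were 5.4 to 27.2 kb wide. Over all regions at least 5 kb wide, a width chosen after seeing the data, the median before centring was 1.41 for DKO CD8 over WT CD8, against 1.19. For WT CD4 over WT CD8 it was 1.60, against 1.41. Of those wide regions, 9.71% and 9.56% were 2-fold or more above the all-region median. The part of region width in the values of the 9, and in how many regions had islands in all 3 groups, was not tested. For WT CD4 over WT CD8, 1 region was at least 2-fold higher (7.09% of all) and 1 lower (19.0%). For DKO CD8 over WT CD4, which does not involve WT CD8, 0 were higher (3.89%), 1 was lower (8.79%), and the median was 0.23.

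The H3K27me3 domain with most reads lay at Eomes, chromosome 9, 118383601 to 118406800. It held 1028 reads in DKO CD8 in 1 island of 20.4 kb, 988 reads in WT CD4, and 259 reads in WT CD8 spread over 4 islands. Reads per kb of island were 50.4 in DKO CD8 and 19.0 in WT CD8. The 20.4 kb island ranked 266 by reads among 23933 DKO CD8 islands, and the WT CD4 island of 20.0 kb, with 937 reads, ranked 371 among 34013. Relative to the median, the domain was 0.80 higher in DKO CD8 over WT CD8 (95% interval 0.60 to 1.0) and 0.52 higher in WT CD4 over WT CD8 (0.32 to 0.73). Between DKO CD8 and WT CD4 the difference was 0.28 (0.16 to 0.41). Centred on regions at least 5 kb wide, DKO CD8 over WT CD8 was 0.58 (0.38 to 0.78) and WT CD4 over WT CD8 0.33 (0.13 to 0.53).

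A second Eomes domain, chromosome 9, 118374601 to 118382600, had 293 reads in DKO CD8, 251 in WT CD4 and 45 in WT CD8. It was the highest of the 9 common regions in DKO CD8 over WT CD8, at 1.51 (1.05 to 2.0), above 98.0% of all H3K27me3 regions, and reached 1.07 (0.61 to 1.56) in WT CD4 over WT CD8. DKO CD8 had 1 island of 8.0 kb in it, against 1 of 2.4 kb in WT CD8. A region at the edge of the window, chromosome 9, 118367001 to 118372400, held 81 reads in DKO CD8, 81 in WT CD4 and 63 in WT CD8. Relative to the median this gave -0.83 (-1.32 to -0.33) for DKO CD8 over WT CD8 and -1.05 (-1.54 to -0.55) for WT CD4 over WT CD8. Reads per kb of island were 25.3 in DKO CD8, 19.3 in WT CD4 and 16.6 in WT CD8, against 32.0, 28.4 and 21.2 over the whole lists. Scaled to total island reads, DKO CD8 over WT CD8 was 0.11 there.

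Other marks were sparse at Eomes. H3K4me3 was called in WT CD4 alone, with 22 reads over 0.6 kb at chromosome 9, 118388001 to 118388600. H3K27ac had islands at chromosome 9, 118385801 to 118388600, with 24 reads in DKO CD8 and 50 in WT CD4. WT CD8 had no island there. The log2 ratio of DKO CD8 over WT CD4 was -0.67 there, with an interval that included 0 (-1.43 to 0.06). Each of these islands lay wholly within an H3K27me3 island of its own group, so active and silencing marks were called over the same bases. In bulk cells, marks on the same chromosome copy and marks in different cells cannot be told apart. WT CD8 had 2 H3K27ac islands elsewhere in the window, of 20 and 19 reads, and the first of them lay wholly within a WT CD8 H3K27me3 island. No H3K9ac island and no Tcf1 peak fell in the Eomes window.

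**Figure D2:**
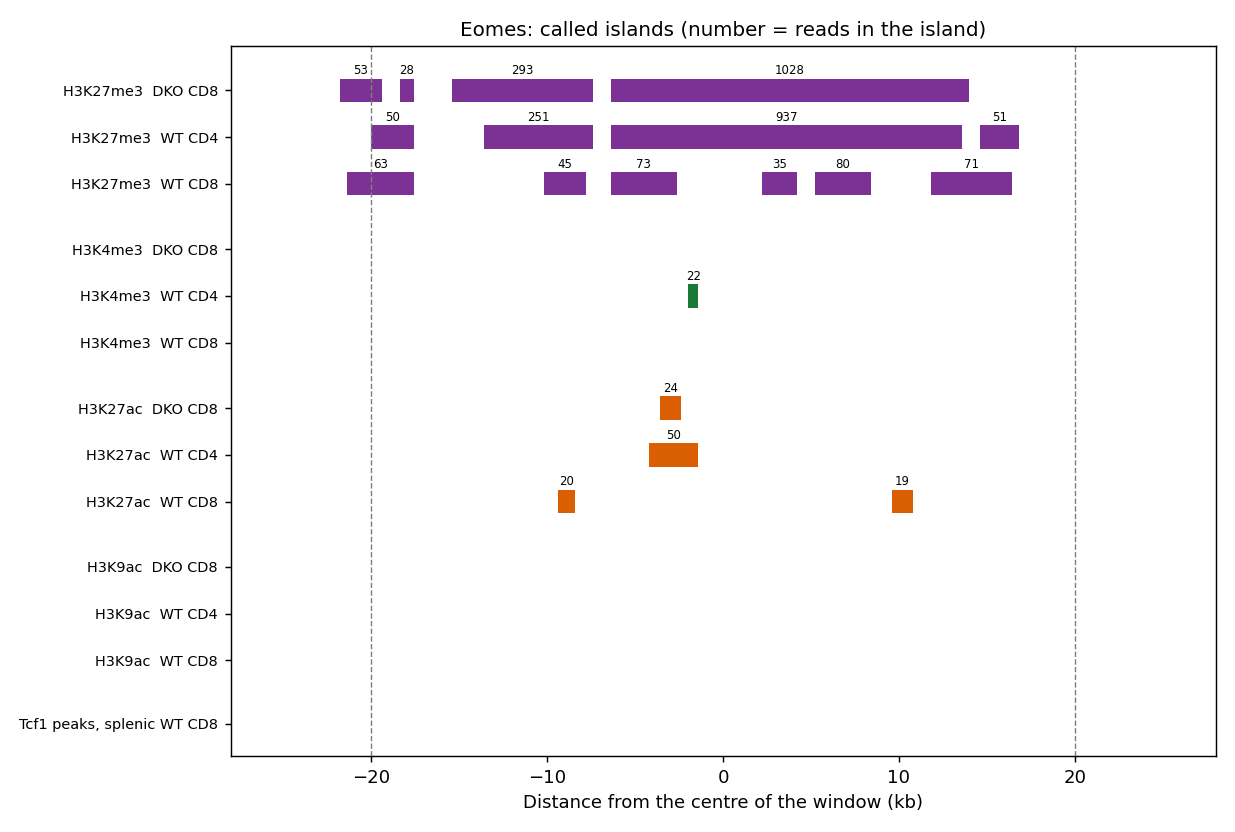
Islands of the 4 marks in DKO CD8, WT CD4 and WT CD8 at Eomes, by distance from the window's centre (kb), with the reads of each island printed above it and dashed lines at the window's edges. The DKO CD8 and WT CD4 rows show 1 broad H3K27me3 island each, of 1028 and 937 reads, where WT CD8 has several islands of at most 80 reads.

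At Tbx21 the broadest H3K27me3 region was chromosome 11, 96940401 to 96967600, which runs past the window. It held 762 reads in DKO CD8 in a single island of 26.2 kb, 660 in WT CD4 and 248 in WT CD8. Per kb of island this was 29.1 reads in DKO CD8 and 14.6 in WT CD8. The ratio of DKO CD8 over WT CD8 was 0.43 (0.22 to 0.64), and that of WT CD4 over WT CD8 was 0.00 (-0.21 to 0.22). DKO CD8 over WT CD4 was also 0.43 (0.28 to 0.59), above 82.9% of all regions. Centred on regions at least 5 kb wide, DKO CD8 over WT CD8 was 0.21 (0.00 to 0.42) and WT CD4 over WT CD8 -0.19 (-0.40 to 0.03).

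The second Tbx21 domain, chromosome 11, 96972401 to 96981800, carried 300 reads in DKO CD8, 250 in WT CD4 and 56 in WT CD8. It was 1.23 higher (0.81 to 1.67) in DKO CD8 over WT CD8 and 0.75 higher (0.33 to 1.20) in WT CD4 over WT CD8. The island there was 8.2 kb in DKO CD8, 7.6 kb in WT CD4 and 4.6 kb in WT CD8, so these high ratios go with a shorter WT CD8 island. Reads per kb of island were 36.6 in DKO CD8, 32.9 in WT CD4 and 12.2 in WT CD8. Farther on, chromosome 11, 96992401 to 96998200, had 25 reads in DKO CD8, 92 in WT CD4 and 39 in WT CD8. This was the lowest of the common regions, at -1.83 (-2.62 to -1.07) for DKO CD8 over WT CD8 and -1.65 (-2.35 to -1.0) for DKO CD8 over WT CD4. The DKO CD8 island there spanned 0.8 kb, against 5.8 kb in WT CD4 and 2.8 kb in WT CD8. Per kb of island DKO CD8 was instead the highest, with 31.2 reads, against 15.9 in WT CD4 and 13.9 in WT CD8, so the low ratio goes with a short island.

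Both Tcf1 peaks of the Tbx21 window lay within that second domain, inside the H3K27me3 islands of all 3 groups. Of the 7807 Tcf1 peaks, 1.86% were in H3K27me3 islands of all 3 groups. The peak at chromosome 11, 96976044 to 96976257, had a score of 58.59 and ranked 6050 in the list, and the peak at 96976496 to 96976698 scored 82.73 and ranked 3405. These scores are the authors' own values and serve only to rank peaks. The first peak also fell in an H3K27ac island of DKO CD8 (22 reads, chromosome 11, 96975801 to 96976400) and in H3K4me3 islands of WT CD4 (23 reads) and WT CD8 (12 reads). No H3K4me3 island was called there in DKO CD8, and no H3K27ac island there in WT CD4 or WT CD8. The second peak met the same WT CD4 H3K4me3 island over 51.7% of its length and no H3K27ac island. For H3K4me3 at this place, WT CD4 over WT CD8 was 0.25 with an interval from -0.82 to 1.39.

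H3K27ac at Tbx21 had 3 islands with 72 reads in DKO CD8, 2 islands with 107 reads in WT CD4, and no island in WT CD8. The place shared by DKO CD8 and WT CD4 was chromosome 11, 96988001 to 96990200, with 29 reads in DKO CD8 and 80 in WT CD4. It lay outside the H3K27me3 islands of either group. Relative to the median it was 1.07 lower in DKO CD8 on the log2 scale (-1.07, -1.74 to -0.44), 1 of the 7.29% of all H3K27ac regions at least 2-fold lower in DKO CD8 over WT CD4. A DKO CD8 H3K4me3 island of 16 reads overlapped it. The window's remaining H3K4me3 islands were weak, from 11 to 24 reads, and its H3K9ac islands held 19 reads in WT CD4 and 18 in WT CD8, at different places. By the RefSeq gene order of GRCm38.p6, Tbx21 lies between Osbpl7 and Tbkbp1, and the islands were not assigned to genes.

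**Figure D3:**
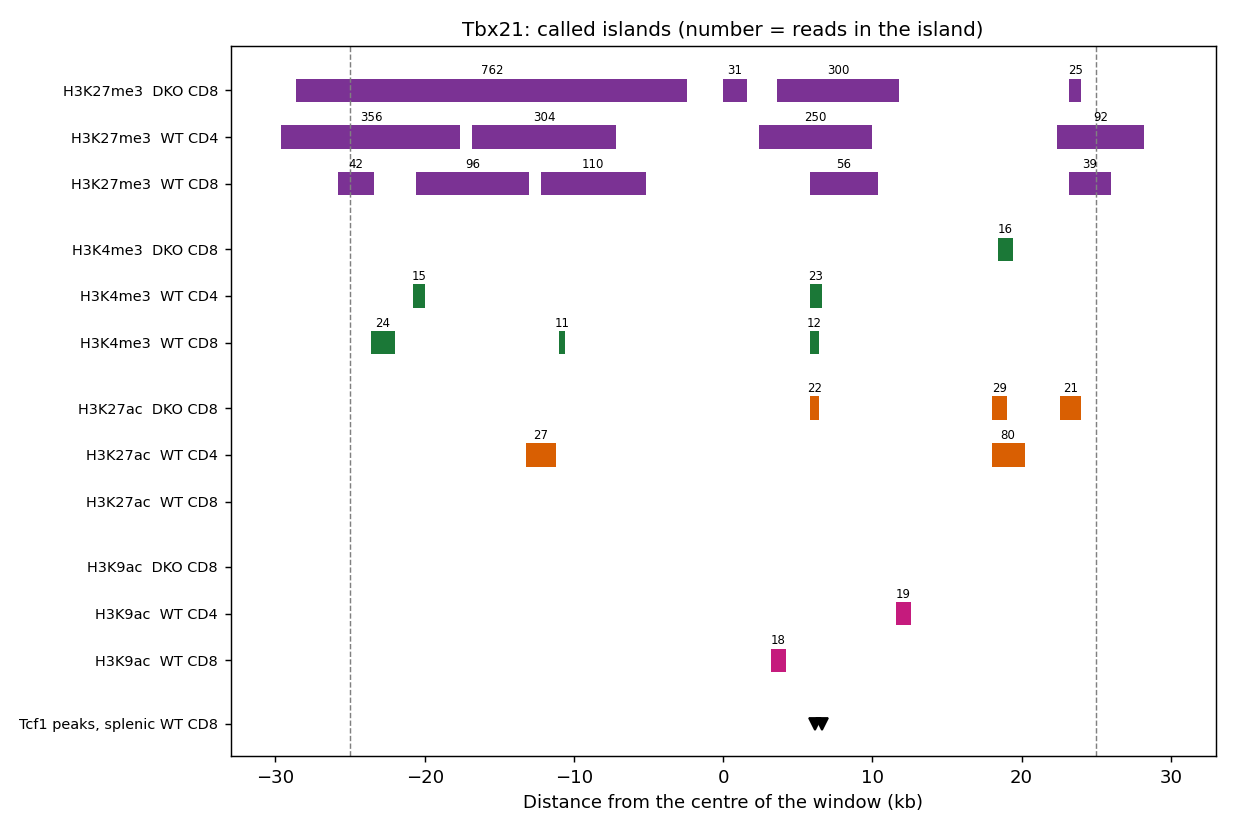
Islands of the 4 marks in DKO CD8, WT CD4 and WT CD8 at Tbx21, by distance from the window's centre (kb), with reads above each island, dashed lines at the window's edges and triangles at Tcf1 peaks. The 2 triangles sit under H3K27me3 islands of all 3 groups, of 300, 250 and 56 reads.

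Prdm1 had less of its window under H3K27me3 than the T-box genes had, and more under H3K27ac, though in WT CD8 not with trimmed lists. H3K27ac islands covered 9.09% of the Prdm1 window in DKO CD8, 10.9% in WT CD4 and 5.82% in WT CD8. The highest share of any group was 8.4% at Tbx21 and 7.0% at Eomes. In WT CD8 the share was 5.5% at Eomes, and no island was called at Tbx21. With H3K27ac lists trimmed in the same way to an equal 59.1 Mb, the Prdm1 shares were 9.09% in DKO CD8, 10.9% in WT CD4 and 0% in WT CD8. The WT CD8 share at Eomes was then 2.5%. H3K27me3 islands at Prdm1 held 454 reads in DKO CD8, 470 in WT CD4 and 158 in WT CD8, which is 22.7, 22.6 and 14.9 reads per kb of island in those groups. The region with most reads, chromosome 10, 44196001 to 44213200, runs past the window and had 306 reads in DKO CD8, 369 in WT CD4 and 89 in WT CD8. Its ratio was 0.59 (0.24 to 0.95) for DKO CD8 over WT CD8, 0.64 (0.31 to 0.99) for WT CD4 over WT CD8 and -0.04 (-0.27 to 0.18) for DKO CD8 over WT CD4. A smaller region, chromosome 10, 44184601 to 44191200, had 70 reads in DKO CD8, 113 in WT CD4 and 48 in WT CD8 (-0.65, -1.20 to -0.09, for DKO CD8 over WT CD8, and 0.29 when scaled to total island reads). WT CD4 alone had a region at chromosome 10, 44142401 to 44148000, with 63 reads over 5.6 kb, also at the window's edge.

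H3K27ac was called at 5 places in the Prdm1 window. The strongest, chromosome 10, 44166601 to 44169400, was the only H3K27ac region of the 3 windows with islands in all 3 groups (12.4% of all H3K27ac regions have them). It held 79 reads in DKO CD8, 149 in WT CD4 and 37 in WT CD8, or 39.5 reads per kb of island in DKO CD8 and 16.8 in WT CD8. Relative to the median, DKO CD8 over WT CD8 was -0.37 (-0.95 to 0.24) and WT CD4 over WT CD8 was 0.12 (-0.40 to 0.69), with intervals that included 0. Scaled to total island reads, DKO CD8 over WT CD8 was 1.16. DKO CD8 over WT CD4 was -0.52 (-0.93 to -0.12). An H3K9ac island of 24 reads was called there in WT CD4, and no H3K9ac island in DKO CD8 or WT CD8.

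This place also held the window's strongest Tcf1 peak, chromosome 10, 44167643 to 44168548, 906 bp wide, with a score of 376.54 and rank 66 of 7807. The other Prdm1 peaks, at 44149284 to 44149711 (score 156.52, rank 926) and 44163631 to 44164001 (score 144.62, rank 1117), likewise lay in H3K27ac islands, but not of every group. The first was in islands of DKO CD8 (34 reads) and WT CD4 (22 reads), and in none of WT CD8, a pattern that 19.2% of all Tcf1 peaks had. The second was in an island of WT CD4 alone (29 reads), a pattern of 7.63% of all peaks. No Prdm1 peak lay in an H3K27me3 or H3K4me3 island of any group, as was so for most peaks of the list (89.5% for H3K27me3 and 53.6% for H3K4me3). The H3K27ac region around the first peak, chromosome 10, 44149001 to 44151000, was 1.02 higher in DKO CD8 over WT CD4 (0.21 to 1.87), and 4.32% of all regions were 2-fold or more above the median.

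A further place, chromosome 10, 44178001 to 44179600, carried H3K27ac with 58 reads in DKO CD8 and 45 in WT CD4. WT CD8 had no island there. DKO CD8 over WT CD4 was 0.76 (0.17 to 1.35). H3K4me3 was called within it, at 44178201 to 44178800, with 17 reads in DKO CD8 and 17 in WT CD4 (0.62, -0.44 to 1.68), but not in WT CD8. H3K27me3 differed in extent at this spot. In DKO CD8 its island, of 121 reads, ended at 44178000, where the H3K27ac island began, whereas in WT CD4 an H3K27me3 island of 137 reads ran on to 44179600 and covered the H3K4me3 and H3K27ac islands and an H3K9ac island of 13 reads. In WT CD8 the H3K27me3 island, of 33 reads, also ended at 44178000, and an H3K27ac island of 16 reads, at 44176401 to 44177400, lay wholly within it.

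**Figure D4:**
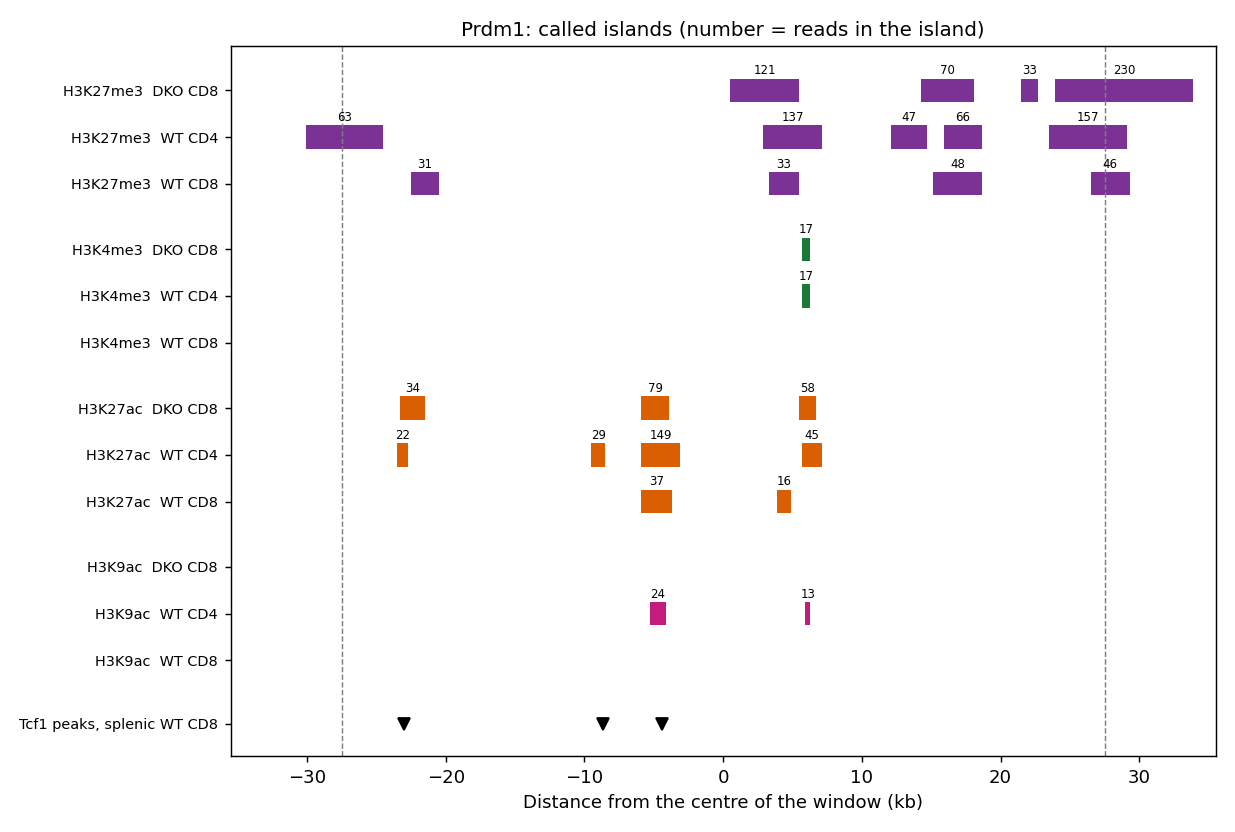
Islands of the 4 marks in DKO CD8, WT CD4 and WT CD8 at Prdm1, by distance from the window's centre (kb), with reads above each island, dashed lines at the window's edges and triangles at Tcf1 peaks. Each of the 3 triangles stands at a WT CD4 H3K27ac island, of 22, 29 and 149 reads. The first of them stands also at a DKO CD8 island (34 reads), and the last also at islands of DKO CD8 (79 reads) and WT CD8 (37 reads).

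Across the 3 windows, H3K27ac was called at 12 regions: 4 in DKO CD8 plus WT CD4 but not WT CD8 (8.03% of all H3K27ac regions) and 1 in all 3 groups. A single group held the rest, with 2 regions of DKO CD8 (13.9% of all), 2 of WT CD4 (8.19%) and 3 of WT CD8 (54.6%). The 4 regions without WT CD8 lay 1 at Eomes, 1 at Tbx21 and 2 at Prdm1, and they had 24 to 58 reads in DKO CD8 and 22 to 80 in WT CD4. The smallest WT CD8 H3K27ac island of the list had 10 reads, and reads at these 4 places in WT CD8 are not known. H3K4me3 islands were called at 7 regions and H3K9ac islands at 4, and no region of either had islands in all 3 groups, against 7.91% and 6.84% of all regions. The 7 H3K4me3 regions were called in DKO CD8 plus WT CD4 (1, against 1.99% of all H3K4me3 regions), in WT CD4 plus WT CD8 (1, against 2.72%), or in a single group: DKO CD8 (1, against 18.5%), WT CD4 (2, against 24.6%) and WT CD8 (2, against 42.1%). DKO CD8 had no H3K9ac island in the windows, and its H3K9ac list was the shortest, with 6516 islands. Of the 4 H3K9ac regions, WT CD4 alone had 3 (66.1% of all H3K9ac regions) and WT CD8 alone 1 (13.2%).

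H3K4me3 islands overlapped H3K27me3 islands of their own group in 0 of 2 cases in DKO CD8, 4 of 4 in WT CD4 and 3 of 3 in WT CD8. Over the whole lists the shares were 11.5% in DKO CD8, 19.4% in WT CD4 and 24.8% in WT CD8. The overlap covered the whole H3K4me3 island in 4 of the 4 WT CD4 cases, and in WT CD8 it covered 12.5% of the island at chromosome 11, 96946401 to 96948000. With 9 islands of 11 to 24 reads, these are counts of weak islands.

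The ratios of the 9 common H3K27me3 regions moved by gene and by place within a gene. The 2 largest domains of Eomes and of Tbx21 were above the median in DKO CD8 over WT CD8 and in DKO CD8 over WT CD4, while a region at the edge of each of these windows had a ratio below the median in DKO CD8 over WT CD8. At both edge regions, reads per kb of island were higher in DKO CD8 than in WT CD8, as they were over the whole H3K27me3 lists (32.0 against 21.2). The Prdm1 regions lay on either side of the median, from -0.65 to 0.68 in DKO CD8 over WT CD8.

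**Figure D5:**
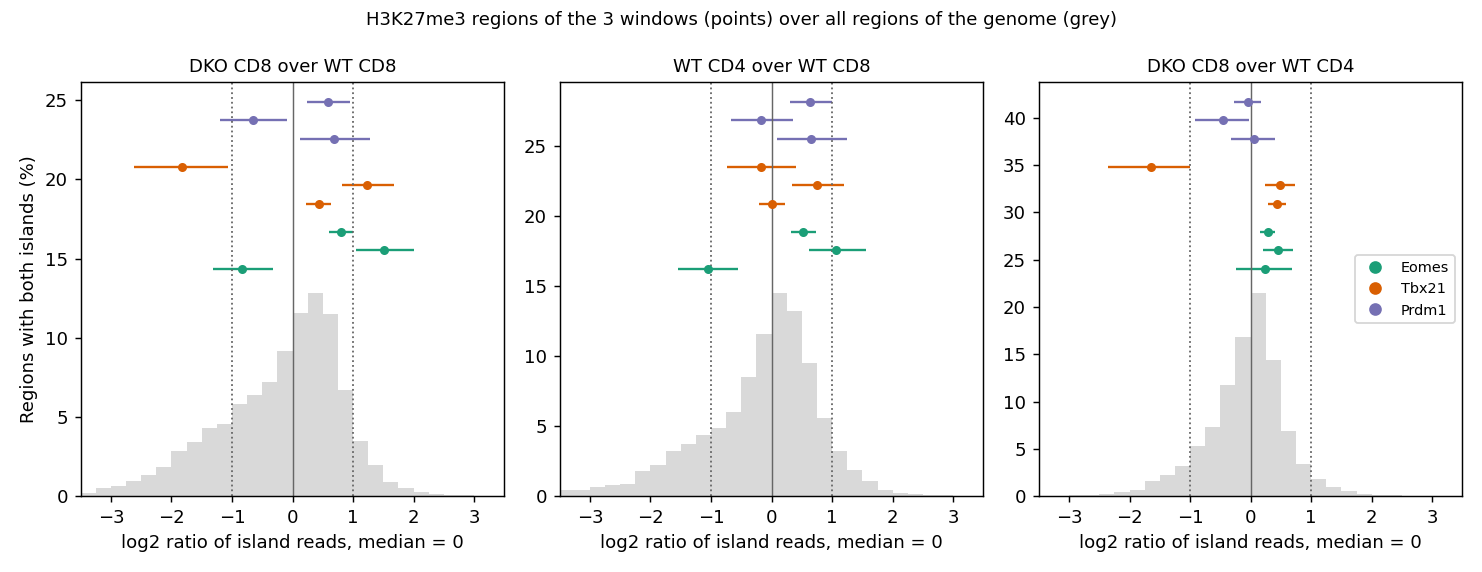
H3K27me3 log2 ratios of the 9 regions with islands in all 3 groups (points, with 95% counting intervals, coloured by gene and stacked only for legibility) over the percentage of all regions per bin (grey, vertical axis). Dotted lines mark 2-fold, and 2 points of DKO CD8 over WT CD8, 1.51 and 1.23, lie to the right of the upper one.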

How the data were processed

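The authors' deposited island lists give a whole-number read count per island, not normalized, 1 list per histone library, and the Tcf1 peaks, also deposited, carry a score from the authors of 50 or more. Per the submitters' processing notes, the build was mm9 and the tools were SICER 1.1, MACS 1.4.2, Bowtie2 2.2.5 and FastQC, with no role stated for each. Of 17 samples, the 3 inputs and the Tcf1-deficient library were not used here as separate lists. The labels mention a second sequencing run for some samples and do not name them. Sequencing depth in total reads is not known. Reads within islands ranged from 248234 (WT CD8 H3K9ac) to 4025243 (WT CD4 H3K27me3), and PCR reads are not independent molecules.

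Islands lie on a 200 bp grid and are written from 1. Islands of the 3 groups sharing at least 1 bp were merged per mark. At regions with islands in 2 libraries, the log2 ratio of reads was centred on its median, with exact Clopper-Pearson intervals at 95% conditional on the sum of the counts. A region with no island has an unknown number of reads and gets no fold. The genes, windows and comparisons were chosen with earlier results of these data known. Named regions were, per gene and mark, that with most reads, those with a Tcf1 peak, those at least 2-fold from the median with 50 reads or more, and those of 1 or 2 groups with 50 reads or more; some others are given to complete each window and were chosen after their values were seen. The planned count of other effector genes' promoters was not run, as no mm9 annotation was used. Promoter sequences are RefSeq's, from GRCm38.p6, and 3 of 3 genes matched by symbol. The ratio step was run on simulated Poisson counts with known folds, at regions with islands in each compared library. Island calling and reads outside islands were not simulated, so their effect on the ratios was not tested. The software was SciPy 1.17.1, pandas 2.3.3 and numpy 2.4.6 under Python 3.11.15, with matplotlib 3.10.9 for figures.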

Additional observations from a re-analysis of the deposited data

How the results depend on the processing

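No paired analysis was possible because each group has 1 library per modification. For the same reason no library could be left out. The count over other effector genes was not run, since no mm9 annotation was used. Over all 4 marks, regions at least 2-fold from the median ratio numbered 2 higher and 1 lower for DKO CD8 over WT CD8, 1 and 1 for WT CD4 over WT CD8, and 1 and 2 for DKO CD8 over WT CD4. Scaled to total island reads, DKO CD8 over WT CD8 gave 7 higher and 0 lower, WT CD4 over WT CD8 gave 7 and 0, and DKO CD8 over WT CD4 gave 0 higher. With islands above their list's median reads, the counts were 0 in each, except 1 lower for DKO CD8 over WT CD8. With a 1.5-fold threshold they were 5 higher and 3 lower for DKO CD8 over WT CD8, 4 higher for WT CD4 over WT CD8, and 3 higher for DKO CD8 over WT CD4. With islands wholly within the windows, 0 were lower for DKO CD8 over WT CD8, 0 for WT CD4 over WT CD8, and 1 for DKO CD8 over WT CD4. Centred on regions at least 5 kb wide, chosen after seeing the data, 2 were lower for DKO CD8 over WT CD8, 0 higher for WT CD4 over WT CD8, and 1 lower for DKO CD8 over WT CD4. Centred on regions with at least 50 reads, 0 were higher for WT CD4 over WT CD8. The cause of these shifts was not tested.

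Keeping islands above their list's median reads left 2, 2 and 1 H3K27ac regions in DKO CD8, WT CD4 and WT CD8 (7, 7 and 4 with all islands), 0, 2 and 1 H3K4me3 regions (2, 4 and 3), 1 H3K9ac region in WT CD4 and 0 in WT CD8 (3 and 1), and 4 H3K27me3 regions in WT CD8 (10). It also left 0 of the 4 H3K27ac regions shared by DKO CD8 and WT CD4 but not WT CD8, a count added after seeing the data. With lists of equal covered length that count was 5, and WT CD8 had 1 H3K27ac and 1 H3K4me3 region and WT CD4 1 H3K9ac region. A Tcf1 score of at least 100 left 3 of the 5 peaks.

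Of 239 alternatives to 45 single ratios, 19 changed sign: 6 from a value whose interval did not include 0 and 13 from one whose interval did. Apart from those 6, 42 alternatives fell outside the interval of the main value and 191 stayed within it. Scaling to total island reads moved 28 of the 45 ratios outside their interval, reversed 2 and left 15 within it. The planned ratios of H3K27me3 reads summed over each window count places with no island as 0 reads, so they are not reported as results. They turned from 0.51 to -0.75 at Tbx21 and from 0.33 to -0.19 at Prdm1 for DKO CD8 over WT CD8, and from 0.38 to -0.41 at Tbx21 for DKO CD8 over WT CD4, when restricted to islands wholly within the window. Total island reads gave 0.11 at the Eomes region from 118367001 and 0.29 at the Prdm1 region from 44184601 for DKO CD8 over WT CD8. They also gave 1.16 in place of -0.37 for H3K27ac at the Prdm1 region from 44166601. Islands above the median gave 0.27 at the Prdm1 region from 44184601 for DKO CD8 over WT CD4. Reads outside islands, the depth of each library and the spread between animals are not known, which limits every comparison here.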

Other observations

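Tcf1 peaks stood just outside the Prdm1 and Eomes windows. A peak at chromosome 10, 44202879 to 44203366, lay 2.88 kb past the edge of the Prdm1 window, with a score of 228.96, above the scores of the first 2 peaks inside it. It fell within the H3K27me3 region that crosses that edge, inside the DKO CD8 island at 44196401 to 44206400. The WT CD4 and WT CD8 islands across the edge ended before the peak, at 44201600 and 44201800. WT CD4 had 2 islands in this region, of 15.6 kb in all, and the one across the edge was 5.6 kb. The other is so long that, within a region ending at 44213200, it must overlap the peak. WT CD8 also had 2 islands there, of 5.2 kb in all, and whether its other island holds the peak was not checked. The nearest peak before the Prdm1 window was 422 kb away. The nearest to the Eomes window were 5.24 kb after it (score 68.43) and 69.8 kb before it (score 82.2). The list held 3.02 peaks per Mb of the genome span, with a median score of 76.41.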
